A study of Mus musculus with 13 samples.

Results

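miR-210-3p, the 3′ arm of the mouse miRNA gene Mir210, was read by 1 of the 68 probes of a plasma exosome miRNA panel. The probe was chosen by its name, which the panel gives as the human miR-210-3p, and the rule uses no measured value, although earlier results of these data were known when it was set. The panel was read in 13 mice, all male wild-type C57BL/6J, 24 hours after surgery. The 5 control mice had a sham operation and the 8 septic mice had cecal ligation and puncture (CLP), a model of polymicrobial sepsis in which a tied and perforated cecum leaks gut bacteria. Per the labels, exosomes, the small vesicles shed by many cell types, were isolated from plasma by ultracentrifugation. The labels give no age, batch, plasma volume or RNA input, and no protein marker of exosomes was measured, so the vesicle fraction could not be checked against markers. Each sample was taken as 1 mouse, so a p-value covers only the spread among these samples, part of which may be technical.

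A miRNA is a short RNA, cut from a hairpin precursor, that guides the silencing machinery to messenger RNAs pairing with its seed, bases 2 to 8 of the miRNA. miR-210-3p is the miRNA most regularly induced by low oxygen: hypoxia-inducible factors (HIF) bind near its gene and raise its transcription in many cell types. Among its known targets are ISCU, a scaffold for iron-sulfur clusters of the respiratory chain, and EFNA3, an ephrin ligand linked to vessel growth, and it is also made in erythroid and activated immune cells.

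The mature miR-210-3p is shown in lower case with its seed in capitals, because the seed sets which messages it can pair with. The other arm of the hairpin, miR-210-5p, had no probe on the panel. Below these stand miR-130a-3p and miR-34a-5p, the miRNAs whose values over the 13 mice were most like those of miR-210-3p, and miR-10a-5p and miR-200a-3p, the partners whose ratio to it differed between the groups. All sequences are RefSeq's for mouse (GRCm38.p6), written 5′ to 3′.
miR-210-3p: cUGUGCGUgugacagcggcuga
miR-210-5p: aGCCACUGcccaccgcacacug
miR-130a-3p: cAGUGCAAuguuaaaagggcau
miR-34a-5p: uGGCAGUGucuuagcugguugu
miR-10a-5p: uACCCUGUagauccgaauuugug
miR-200a-3p: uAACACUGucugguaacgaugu

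In GRCm38.p6 the mature miR-210-3p lies at chr7:141221407-141221428 on the minus strand, inside the 110-base hairpin at chr7:141221384-141221493. No other gene of the RefSeq table used here overlapped the hairpin. The nearest were Rassf7, ending 2726 bases away at lower coordinates, and the predicted gene Gm51460, starting 6713 bases away at higher coordinates. The hairpin is printed because it shows both arms, with miR-210-3p (bases 66 to 87) in capitals and miR-210-5p at bases 28 to 49.
Mir210 hairpin: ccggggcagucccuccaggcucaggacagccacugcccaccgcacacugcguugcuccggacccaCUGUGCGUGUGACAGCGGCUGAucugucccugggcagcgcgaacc

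Of the 68 probes, 48 matched a mouse mature miRNA by exact name. None of the other matched miRNAs shared the seed of miR-210-3p, and the closest seeds, of which miR-130a-3p carries 1, differed from it at 3 of 7 bases. Across all 1679 mouse mature names in the table, 0 others carried this seed. The mature miR-210-3p is 63.6% G and C, the second highest share among the matched miRNAs, whose median was 45.5%. Cross-hybridization of the probe was not assessed, as no probe sequence was used here.

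The first question was how much miR-210-3p signal each mouse gave before any scaling. The raw signal, in fluorescence units, was brighter in CLP mice by 3.53-fold on the geometric mean (log2 difference 1.82, SE 0.53). In sham mice 1 to 5 it was 7.57, 26.7, 32.8, 10.3 and 47.5 units. In the 8 CLP mice the lowest value was 18.6 (mouse 8), the median 82.6 and the highest 165 units (mouse 4). The groups overlapped, as they did for all but 15.2% of the miRNAs tested: 6 of 8 CLP mice were above every sham mouse, CLP mouse 1 at 43.0 units lay just below sham mouse 5, and CLP mouse 8 lay between sham mice 4 and 2.

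Every mouse was above the detection floor used here, the 5th percentile of the positive raw values (2.10 units). The margin ran from 3.61 times the floor in sham mouse 1 to 78.9 times in CLP mouse 4. On the log2 scale the raw mean was 4.32 ± 1.13 (SD, n = 5) in sham and 6.15 ± 0.97 (SD, n = 8) in CLP. limma's moderated test over all 66 miRNAs tested gave an adjusted p = 0.00339 with a 95% interval of 0.73 to 2.91, and the exact two-sided permutation test over the 1287 possible splits gave p = 0.0124 (0.0164 once adjusted over the panel by Benjamini-Hochberg). That call was shared by most of the panel: 90.9% of the miRNAs tested (60 of 66) were called higher on raw signal, and the median miRNA differed by 1.87. miR-210-3p stood 36th of 66 in order of raw change.

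The call did not pass without the weakest sham samples. These, sham mice 1 and 4, also had the lowest raw miR-210-3p of their group, so leaving them out had to make the difference smaller. In a fit without sham mice 1 and 4, added after seeing the data, the difference was 1.03 and the adjusted p = 0.103 by limma, and 36 miRNAs instead of 60 were called higher. With a measure taken in plasma, a larger number of vesicles and more miR-210-3p per vesicle cannot be told apart. Nor can either be told apart from a larger plasma volume or RNA input, which the labels do not give.

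**Figure D1:**
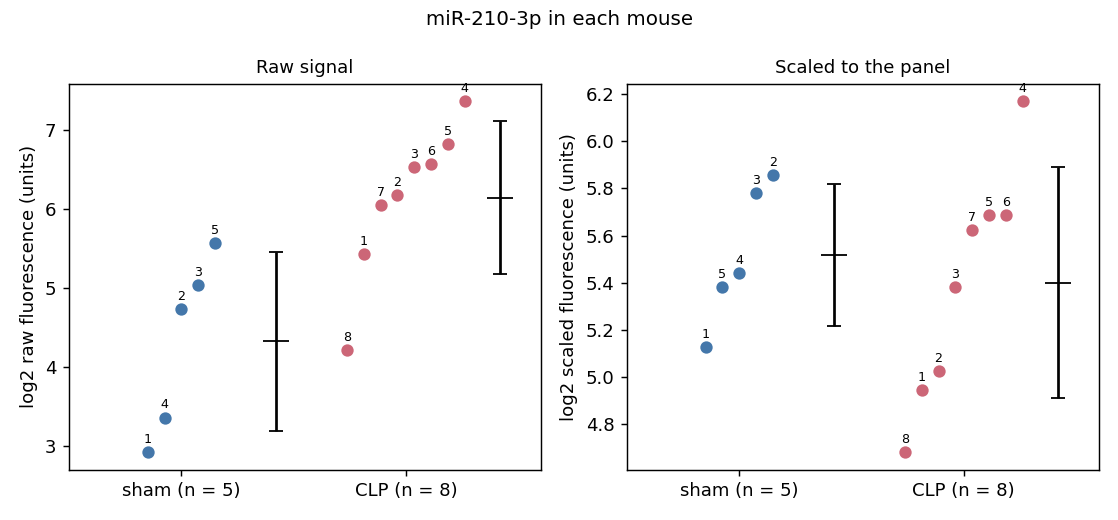
Log2 fluorescence of miR-210-3p in each mouse, raw on the left and scaled to the geometric mean of the panel on the right; points are mice with their number, arranged by value, and the bar beside each group is the mean ± SD. Raw values are higher in most CLP mice, with CLP mouse 8 within the sham range, while scaled values of the groups overlap and the CLP values spread beyond the sham values at both ends.

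The raw signal of miR-210-3p followed the overall brightness of the sample. The level of a mouse was taken as the mean log2 raw signal of the other 59 miRNAs that were above 0 in all mice. It ran from 5.56 to 7.95 in sham and from 7.31 to 8.95 in CLP mice, while the summed raw signal of all probes ran from 10598 to 45121 and from 33043 to 74685 units. Among the 8 CLP mice, Pearson's r between raw log2 miR-210-3p and this level was 0.92 (exact permutation p = 0.00399, 0.00799 adjusted over the 2 measures) and Spearman's rho was 0.76 (exact permutation p = 0.0368, adjusted 0.0368). Without CLP mice 8 and 7, the farthest from the median level, r was 0.78 (exact permutation p = 0.0722) and rho 0.49 (exact permutation p = 0.356), so r stayed positive but no longer passed with 6 mice. Without CLP mouse 8 alone r was 0.74 (exact permutation p = 0.0554). The sham group is too small for a correlation.

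Within groups, raw log2 miR-210-3p rose by 1.27 log2 units (SE 0.16) for each log2 unit of level, against a median of 0.96 over the 57 miRNAs above the floor in every mouse. This was the 11th steepest slope of the 57. It was 1.11 (SE 0.17) within sham and 1.54 (SE 0.28) within CLP; the difference between these slopes was not tested. With the level as a covariate in limma, CLP minus sham turned to -0.64 (SE 0.38, 95% interval -1.46 to 0.17, adjusted p = 0.375). In that fit 4 of 66 miRNAs were called higher and 4 lower, and the groups share only a narrow range of levels.

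Only sham mouse 5 and CLP mouse 8 lay where the levels of the groups overlap. Sham mouse 5, at a level of 7.95, had 47.5 units of miR-210-3p. CLP mouse 8, at a lower level of 7.31, had 18.6 units, less also than sham mouse 3, which had 32.8 units at a level of 7.01. Just above the sham levels, CLP mouse 1 had 43.0 units at 8.25 and CLP mouse 7 had 66.4 units at 8.19. These few mice give values and no test at matched level.

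**Figure D2:**
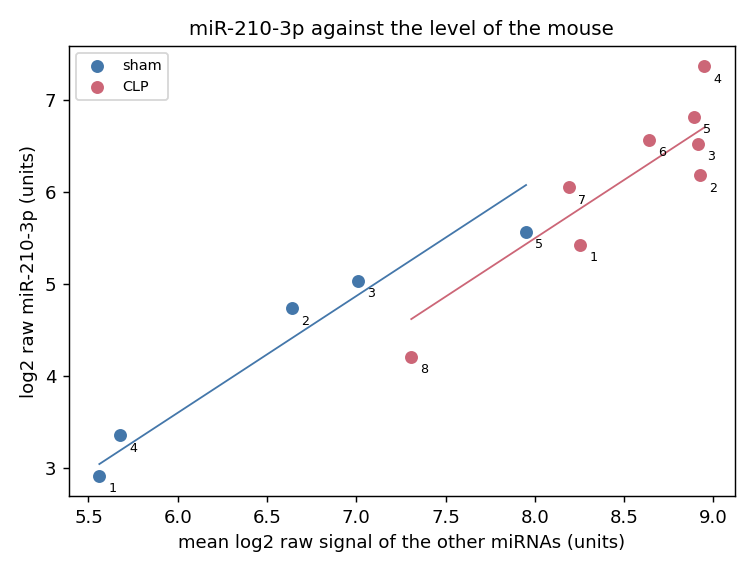
Raw log2 miR-210-3p (y axis, units) against the mean log2 raw signal of the other miRNAs in the same mouse (x axis, units); points are mice with their number, and the lines have the common within-group slope of 1.27. The CLP mice lie farther right and higher, and the CLP line lies below the sham line where their levels overlap.

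The second question was whether miR-210-3p changed relative to the rest of the panel. The signal of a mouse was put over its geometric mean, taken on 60 miRNAs detected above 0 in all mice, and brought back to the average level. The scaled signal was 46.6 ± 9.59 units (SD, n = 5) in sham and 44.4 ± 15.0 units (SD, n = 8) in CLP. Sham mice 1 to 5 had 34.9, 57.9, 55.0, 43.5 and 41.7 units. In CLP mice the lowest was 25.7 (mouse 8), the median 45.5 and the highest 72.0 units (mouse 4). The sham range lay inside the CLP range (7.69% of the panel had groups without overlap on the scaled signal): CLP mice 1, 2 and 8 were below every sham mouse, CLP mouse 4 was above every sham mouse, and 4 of 8 CLP mice were on each side of the sham mean.

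The scaled log2 difference was -0.12 (SE 0.24, 95% interval -0.63 to 0.40), with an adjusted p = 0.723 in limma over 65 miRNAs and an exact two-sided permutation p = 0.637 (0.750 adjusted). The interval leaves room for a change of either sign, so the values do not show that miR-210-3p was equal in the groups. Of the 65 miRNAs, 10.8% were called higher and 20% lower, and miR-210-3p stood 40th from the highest change. Its neighbours in that order were miR-223-3p of neutrophils (-0.11) and let-7b-5p (-0.09) above it, and miR-221-3p of endothelium (-0.16) and let-7i-5p (-0.17) below it. None of these 4 passed either, and each lay within the SE of miR-210-3p.

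**Figure D3:**
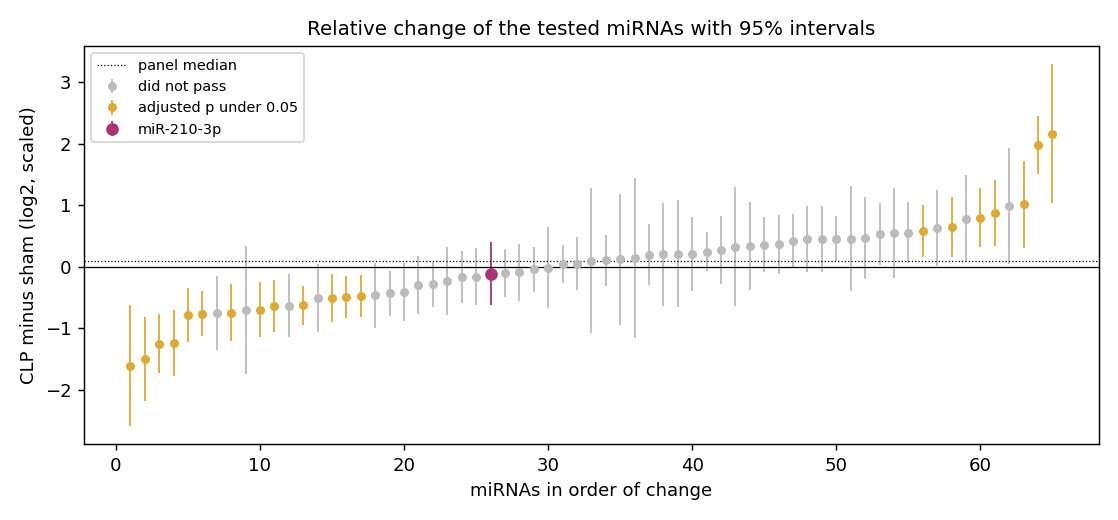
CLP minus sham on the scaled log2 scale (y axis) for the 65 miRNAs tested, in order of change (x axis, lowest at the left), with 95% intervals from limma; yellow points passed at an adjusted p under 0.05 and the dotted line is the panel median of 0.10. miR-210-3p, at -0.12, lies in the middle of the panel and its interval spans 0.

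The sign of the relative change depended on how the mice were scaled. It was -0.24 with quantile normalization and -0.20 with the median of the panel. It was 0.10 with the 75th percentile, 0.10 with the authors' processed values and 0.43 with 3 reference miRNAs (miR-93-5p, miR-23a-3p and miR-20a-5p). In none of these fits did it pass, with adjusted p from 0.189 to 0.767 by limma. The panel median moved with the scaling, from 0.01 with the median to 0.59 with the 3 references. Relative to it miR-210-3p was lower in each fit, by -0.16 to -0.26, and at -0.05 on the raw signal. All these scalings other than quantile normalization apply 1 factor to each sample and shift the miRNAs above the floor alike, so their shared side of the median was largely fixed in advance.

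**Figure D4:**
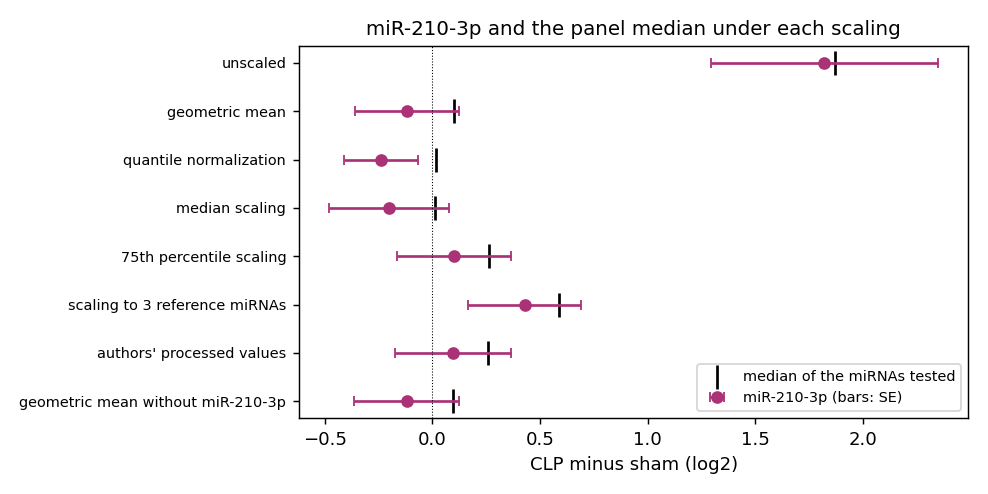
CLP minus sham for miR-210-3p (points, bars are the SE from limma) and for the median miRNA tested (black ticks), on the log2 scale, on the raw signal and under 7 scalings. The sign of miR-210-3p turns with the scaling, and it stays below the median miRNA.

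The position of miR-210-3p within a mouse does not depend on any factor per sample. Among the 67 miRNAs with a value in every mouse it ranked 49, 45, 43, 46 and 48 in sham mice 1 to 5, where 1 is the brightest. In CLP mice 1 to 8 it ranked 49, 51, 48, 44, 49, 46, 48 and 50. The mean rank was 46.2 ± 2.39 (SD, n = 5) in sham and 48.1 ± 2.23 (SD, n = 8) in CLP. The difference of 1.93 places towards the dim end did not pass (exact two-sided permutation p = 0.198), although 6 of 8 CLP mice were below the mean position of sham mice.

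Its share of the summed raw signal differed in the other direction, also without passing. The share was 0.0988% ± 0.0249 (SD, n = 5) in sham and 0.131% ± 0.0524 (SD, n = 8) in CLP, a difference of 0.0321 percentage points (exact two-sided permutation p = 0.235). It ran from 0.0714% (mouse 1) to 0.129% (mouse 3) in sham and from 0.0562% (mouse 8) to 0.224% (mouse 4) in CLP. The share is set against a sum in which miR-16-5p and miR-451a took 22.6% to 41.6% in sham and 13.4% to 24.6% in CLP mice; without the 3 brightest miRNAs in the sum the difference was 0.00579 percentage points. The smallest p that the 1287 splits can give is 0.000777.

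In mean raw signal over all mice miR-210-3p was 52nd of 68 probes. The next brighter were miR-30a-5p and miR-34a-5p, a target of p53, and the next dimmer were miR-885-5p and miR-339-5p. These neighbours are close: miR-210-3p was brighter than miR-34a-5p in 7 of 13 mice and than miR-30a-5p in 9, against 11 for miR-885-5p and 12 for miR-339-5p. Probes can differ in response, so brightness order is not an order of copy number.

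Septic mice differed more from each other in relative miR-210-3p than sham mice did, but not beyond what the exact test could call. The SD of scaled log2 signal was 0.49 (n = 8) in CLP and 0.30 (n = 5) in sham. Among the 57 miRNAs above the floor in every mouse, it was the 11th largest SD in CLP (panel median 0.35) and the 44th in sham (panel median 0.46). The mean absolute deviation from the group median was 0.39 in CLP and 0.23 in sham (exact two-sided permutation p = 0.258). On the raw signal the order turned, with a difference of -0.19 (exact two-sided permutation p = 0.656).

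An index of red cell RNA ran opposite to miR-210-3p in the CLP mice at both ends of its range. The log2 ratio of miR-451a, the main erythroid miRNA, to miR-23a-3p, commonly used as that index in plasma, ran from 1.10 to 3.14 in sham and from 0.58 to 1.63 in CLP. CLP mouse 8, with the lowest miR-210-3p, had the highest ratio of its group (1.63), and CLP mouse 4, with the highest miR-210-3p, the lowest (0.58). These mice also had the lowest (7.31) and highest (8.95) level of the CLP group. The common within-group slope on level was 0.29 (SE 0.12) for raw miR-451a, the flattest of the 57 miRNAs. It was 1.02 for miR-23a-3p and 1.27 for miR-210-3p. The part of the level in this opposition was not tested. Of the 4 erythroid markers listed, 3 were on the panel, all above the floor; together they took 29.4% to 48.2% of the raw signal in sham and 18.9% to 30.1% in CLP. All 3 fell on the scaled signal, with a median change of -1.24, where 20% of the panel fell. With quantile normalization 0 of 3 passed by limma (7 of 64 miRNAs fell), and with the 3 references 2 fell (3 of 65 in the panel). On the raw signal they were positive, with a median of 0.70 against 1.87 for all miRNAs tested. Only 1 of the 3, miR-486-5p, was called higher there by limma, against 90.9% of the panel. The platelet list (miR-126-3p, miR-223-3p, miR-21-5p and miR-24-3p) took 7.75% to 15.2% in sham and 12.4% to 15.3% in CLP. The myeloid list (miR-223-3p, miR-142-3p, miR-155-5p and miR-146a-5p) took 2.94% to 6.22% and 5.96% to 7.74%. The hepatocyte pair (miR-122-5p and miR-192-5p) took 0.230% to 1.90% and 0.646% to 3.29%, and the endothelial pair (miR-126-3p and miR-221-3p) 1.19% to 1.62% and 2.10% to 3.78%. Members are shared between lists, so these shares overlap and are not those of separate cell types. In each of these lists scaled changes had both signs, and in the platelet list limma called 1 member higher and 2 lower. The part of all these lists in the values of miR-210-3p was not tested.

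The ratio of miR-210-3p to another miRNA of the same mouse is free of scaling, so it was taken against each of 65 partners. The log2 ratio was called lower in CLP for 2 partners, 3.08% of those tested, and higher for 0% by the exact permutation test with Benjamini-Hochberg adjustment; at an unadjusted p under 0.05 these counts were 9 and 5. Against miR-10a-5p, whose gene lies among the Hox genes, the mean log2 ratio was 0.15 ± 0.46 (SD, n = 5) in sham and -1.95 ± 0.57 (SD, n = 8) in CLP, 4.28-fold lower (exact permutation p = 0.000777, adjusted 0.0253). The groups did not overlap, which held for 3.08% of the ratios. The 2 partners called, miR-10a-5p and miR-200a-3p, themselves ranked 1 and 2 of 66 in raw change (3.92 and 3.72, against 1.82 for miR-210-3p). On the scaled signal they differed by 1.98 and 2.16, against -0.12 for miR-210-3p. The lower ratios thus go with a larger rise of these partners.

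Against miR-200a-3p, which keeps ZEB repressors low in epithelium, the mean log2 ratio was 1.33 ± 0.71 (SD, n = 5) in sham and -0.56 ± 0.46 (SD, n = 8) in CLP, 3.73-fold lower (exact permutation p = 0.000777, adjusted 0.0253), again without overlap. That p is the smallest the splits can give. In sham mouse 4 miR-200a-3p was below the floor. With any 1 of sham mice 1, 2, 3 and 4 left out, 0 ratios were called lower, and without sham mouse 5 the count was 3. Such fits have fewer splits and a larger smallest p, too large for 2 ratios alone to pass once adjusted. A count of 0 there was open to this limit and cannot show that the calls rest on single mice. The third lowest ratio, to the hepatocyte miR-122-5p, differed by -1.12 (adjusted p = 0.186, exact permutation). That miRNA had no value in sham mouse 4, so this ratio rests on the other sham mice and on fewer splits.

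At the other end, the ratio was highest against miR-205-5p of stratified epithelium (1.49 higher, adjusted p = 0.177, exact permutation), miR-451a (1.39, adjusted p = 0.185, exact permutation) and miR-744-5p (1.13, adjusted p = 0.0673, exact permutation). In 8 of 8 CLP mice the ratio to miR-744-5p exceeded its sham mean, and in 7 of 8 the ratio to miR-205-5p and that to miR-451a did. By limma over the same ratios 3 were called higher. Of the 65 differences 35 were below 0. Each difference sets the raw change of miR-210-3p against that of its partner, so this count restates its place of 36th of 66 in raw change and is no separate result.

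Likeness was measured by Pearson's r of scaled log2 signal over the 13 mice against the 56 other miRNAs above the floor in all of them; it is a description, since scaled values share the factor of their sample. The highest were miR-130a-3p (r = 0.58), miR-34a-5p (0.58), miR-320a (0.52), miR-24-3p (0.40) and miR-16-2-3p (0.39). Centred on group means, the 5 highest were miR-34a-5p (0.73), miR-130a-3p (0.59), miR-320a (0.51), miR-196a-5p (0.47) and miR-24-3p (0.45). The first 3 of the uncentred order were among the 5 highest in all 13 repeats that left out 1 mouse, whereas miR-24-3p was in 8 and miR-16-2-3p in 9. Single mice carried much of the likeness: r for miR-130a-3p was 0.34 without CLP mouse 8, and for miR-34a-5p 0.45 without CLP mouse 4.

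The CLP mice show the likeness most plainly. Scaled miR-130a-3p was lowest in CLP mouse 8 (302 units) and highest in CLP mouse 4 (981 units), the same mice that bound the range of miR-210-3p. In sham mice the order differed, as sham mouse 4 had the most miR-130a-3p (1233 units) and a middle value of miR-210-3p. Scaled miR-34a-5p was also lowest among CLP mice in mouse 8 (27.3 units), and mice 4 and 7 shared its highest value (69.8 units).

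The lowest r were those of miR-142-3p (-0.79), miR-150-5p (-0.60) and miR-29b-3p (-0.56). miR-142-3p, a miRNA of blood leukocytes, was highest in CLP mouse 8 (183 scaled units) and lowest in CLP mouse 4 (19.3 scaled units), the mirror of miR-210-3p; r was -0.93 over the 8 CLP mice. miR-150-5p, a lymphocyte miRNA, was highest in CLP mouse 8 too (3139 scaled units). The common within-group slope on level was 0.48 (SE 0.29) for raw miR-142-3p and 0.79 (SE 0.17) for miR-150-5p, both below the 1.27 of miR-210-3p. It was 1.36 (SE 0.16) for miR-34a-5p and 1.07 (SE 0.20) for miR-130a-3p. Taken apart, sham and CLP gave 0.85 and -0.11 (SE 0.47) for miR-142-3p, and 1.12 and 0.26 for miR-150-5p. They gave 1.29 and 1.47 for miR-34a-5p, 0.67 and 1.76 for miR-130a-3p, and 1.11 and 1.54 for miR-210-3p. The part of these slopes in the likeness was not tested.

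**Figure D5:**
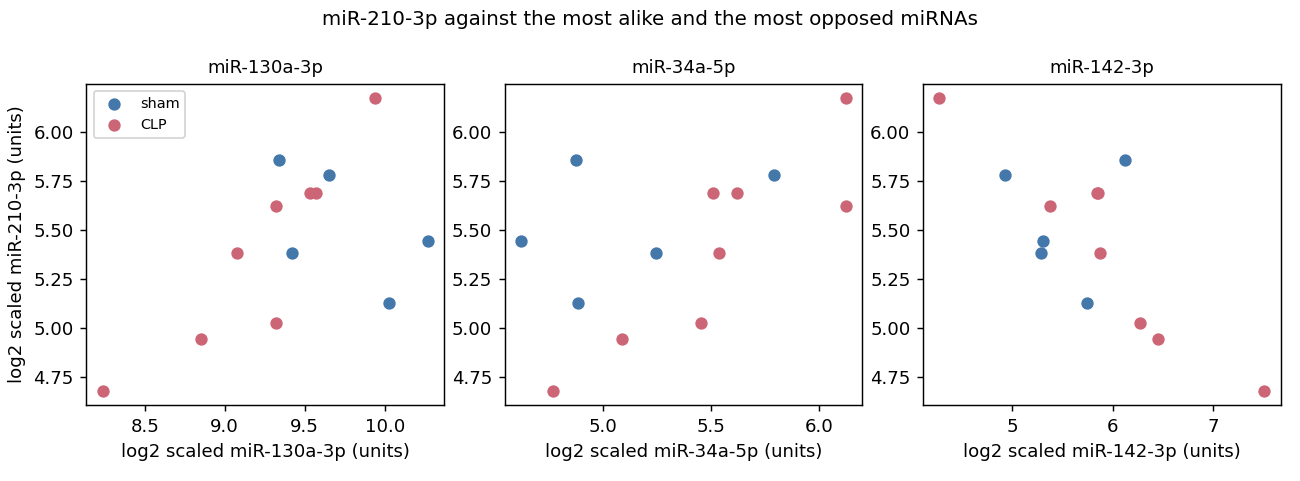
Scaled log2 miR-210-3p (y axis) against scaled log2 miR-130a-3p, miR-34a-5p and miR-142-3p (x axes), in units, for 5 sham and 8 CLP mice, each point a mouse. In the CLP mice values rise together with miR-130a-3p and miR-34a-5p and run opposite to miR-142-3p, with CLP mice 8 and 4 at the ends.

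miR-210-3p was then set beside other miRNAs of the oxygen response. Of 14 miRNAs described as induced by hypoxia or HIF in cultured cells, 9 were on the panel and all 9 were tested. On the raw signal all 9 rose, against 90.9% of the panel, with a median change of 1.53 against 1.87 for all miRNAs tested. Of these, miR-429 was set to the floor in sham mice 1, 2 and 4 and in CLP mouse 8, with a sham mean of 1.67 raw units. It met the filter of 5 samples through CLP mice, so its changes depend in part on the floor. On the scaled signal 0 of 9 rose by limma and 3 fell (miR-21-5p, -0.75; miR-23a-3p, -0.50; miR-24-3p, -0.48), against 10.8% and 20% of the panel. At an unadjusted p under 0.05 limma had 2 of them higher (miR-26a-5p and miR-181a-5p), and the adjusted exact permutation test had 1 (miR-181a-5p, adjusted p = 0.0267). The remaining 6 did not pass by limma: miR-210-3p itself at the list's median of -0.12, miR-26a-5p (0.55), miR-429 (0.47), miR-181a-5p (0.45), miR-155-5p (0.27) and miR-181b-5p (-0.41). The panel median was 0.10.

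These relative directions turned with the scaling. With the 75th percentile and with the authors' processed values, 0 of the 9 fell and miR-181a-5p and miR-26a-5p rose, where 13 of 65 miRNAs rose and 6 fell. With the 3 reference miRNAs, of which miR-23a-3p is a member, 3 rose (miR-155-5p too) and 0 fell, where 28 of 65 miRNAs rose and 3 fell. With quantile normalization miR-181a-5p rose and miR-23a-3p fell (5 and 7 of 64 miRNAs), and with the median miR-21-5p and miR-23a-3p fell (13 of 65). miR-210-3p passed in none of them.

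Of 11 miRNAs described as repressing HIF1A, the oxygen-regulated subunit of HIF, or a regulator of its stability, 6 were on the panel. All 6 rose on the raw signal, as did 90.9% of the panel (median 1.45 against 1.87). The rise of miR-429 again depends in part on the floor. On the scaled signal miR-22-3p rose (0.58) and miR-17-5p (-0.79) and miR-20a-5p (-0.51) fell, against 10.8% higher and 20% lower in the panel; all 3 had risen on the raw signal. miR-22-3p did not pass with the median, miR-17-5p did not pass with the 3 references, and miR-20a-5p, itself a reference there (0.04), passed with the geometric mean and the median. miR-20b-5p (-0.71), miR-429 and miR-155-5p, which the hypoxia list holds too, did not pass on the scaled signal. The list's median was -0.12, as low as that of the hypoxia list.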

How the data were processed

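Exosomal RNA of 13 mice was profiled on FirePlex hydrogel particles. Per the labels' protocols, the bound miRNAs were ligated to adapters and copied by RT-PCR using a primer that carries biotin. The raw table deposited by the authors gives linear fluorescence intensity with no scaling between samples. For scan and background handling, no source used here gives a method. The authors' processed intensity values proved to be the raw ones times 1 factor per sample (0.450 to 4.31). The processed column of CLP 6 matches raw CLP 7 and the reverse, which leaves group tests unaffected; single-mouse values follow the raw table.

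Values were scaled, floored at the 5th percentile of positive values (2.10 raw and 2.38 scaled units) and log2 transformed. Those with 5 or more samples above the floor were tested with limma 3.58.1 in R 4.3.3 (two-sided, Benjamini-Hochberg, adjusted p under 0.05), and 1 empty cell was left empty. Figures used Python 3.11.15 and matplotlib 3.10.9. The fits were tested on simulated data. The number of mice limits the precision.

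Named miRNAs were the 5 most and 3 least alike, neighbours in brightness and change, the 3 highest and lowest ratios and the list members. The miRNA, lists and tests were chosen with earlier results of these data known. No 2 samples held identical values. Same-numbered sham and CLP mice were not treated as pairs, as the labels give no pairing. The correlation of their deviations was above 0.1 for 1 of 5 numbers, which cannot settle whether they were handled together.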

Additional observations from a re-analysis of the deposited data

How the results depend on the processing

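The scaled change of miR-210-3p passed in 0 of 28 alternatives (limma or exact permutation adjusted p = 0.189 to 0.964) and turned positive with the 75th percentile (0.10), the 3 reference miRNAs (0.43) and the authors' values (0.0954). Leaving out 1 mouse gave -0.23 to -0.01. Its raw change passed in 21 of 23 alternatives, from 1.47 to 2.13 with 1 mouse left out; with the level as a covariate it was -0.64, and without the 2 weakest sham mice 1.03. miRNAs called higher on raw signal numbered 4 with that covariate, 36 without those sham mice and 56 to 63 with 1 mouse left out.

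miRNAs called higher on scaled signal numbered 7 and those called lower 13. With quantile normalization 7 were lower, with median scaling 3 higher, with the 75th percentile 13 higher and 6 lower, with the authors' values 13 higher and 6 lower, and with the 3 references 28 higher and 3 lower. Without the 2 weakest sham mice 4 were higher. With 1 mouse left out 3 to 9 were higher and 8 to 16 lower. With the replicate block 2 were higher and 4 lower, while miR-210-3p was at 2.14 raw and -0.08 scaled. For 1 of 5 sham mice the best correlated CLP mouse had its own number, which cannot show whether equal numbers were handled together.

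Rank and share kept their direction and did not pass in any of 16 alternatives each (rank 1.13 to 2.63 places and share 0.0189 to 0.0428 points with 1 mouse left out). The spread difference was -0.19 unscaled and 0.09 to 0.21 with 1 mouse left out. The correlation with level was 0.74 without CLP mouse 8 and up to 0.95 otherwise. Ratios called higher numbered 3 by limma and 0 to 1 with 1 mouse left out. Ratios called lower numbered 1 among partners above the floor in all samples, 0 to 3 with 1 mouse left out and 0 without the 2 weakest sham mice. Fits without a sham mouse have fewer splits and a larger smallest p, so a count of 0 there cannot show that a call rests on single mice. The cause of these changes was not tested. Raw miR-210-3p was closest to the floor in sham mice 1 and 4, at 3.61 and 4.90 times the floor, which is a percentile of the panel and not a measured background.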
